A study of Mus musculus with 6 samples.

Results

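The Polycomb repressive complexes were followed through 10 of their subunit genes, taken as every probe set annotated to exactly 1 of the symbols Ezh2, Ezh1, Eed, Suz12, Jarid2, Rnf2, Bmi1, Pcgf6, Cbx7 and Phc1. That gave 30 of the 45037 probe sets on the array and 10 of 18193 genes with a probe set of a single symbol. Total RNA came from derivatives of E14TG2a, a mouse embryonic stem cell line of 129P2 background, kept for 2 days in N2B27, which lacks serum and lets such cells take on neural fate. Every culture, controls included, held an inducible hairpin built into a microRNA (shRNAmir) that targets Geminin, the product of Gmnn and an inhibitor of the replication licensing factor Cdt1. In the GemKD cultures the hairpin was switched on by 500 ng of doxycycline (Dox, the amount as the labels give it), and the uninduced controls had no Dox. Each of 3 independent experiments had 1 GemKD and 1 uninduced array, with shRNAmir 11 in experiments 1 and 3 and shRNAmir 9, in a separate line, in experiment 2. No culture had Dox without a hairpin, so Dox and knockdown cannot be told apart.

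Polycomb repressive complex 2 (PRC2) places methyl groups on lysine 27 of histone H3. Its catalytic subunit is Ezh2 or the related Ezh1, its core also needs Eed and Suz12, and Jarid2 is an accessory subunit that helps bring it to chromatin. Polycomb repressive complex 1 (PRC1) places ubiquitin on histone H2A through the RING finger ligase Rnf2 (also called Ring1B), which pairs with a PCGF protein such as Bmi1 or Pcgf6. Canonical PRC1 also holds a chromobox protein such as Cbx7, which binds the PRC2 mark, and a polyhomeotic protein such as Phc1. Both complexes are known in embryonic stem cells for holding developmental regulators silent.

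The promoters of 4 of these genes are shown because Bmi1 and Suz12 differed most between experiments and Eed least, as described further on, and because Ezh2, the main catalytic subunit, is the other member with a match to an E2F site. Each holds 250 bases before and 50 bases from the transcription start, 5′ to 3′ on the gene's strand, from RefSeq on GRCm38.p6. Capitals mark letters that match TTTCCCGC or TTTGGCGC (forms of the E2F site), CACGTG (an E-box) or CCAAT, each searched on both strands.
Bmi1, chr2:18676768-18677067, plus strand: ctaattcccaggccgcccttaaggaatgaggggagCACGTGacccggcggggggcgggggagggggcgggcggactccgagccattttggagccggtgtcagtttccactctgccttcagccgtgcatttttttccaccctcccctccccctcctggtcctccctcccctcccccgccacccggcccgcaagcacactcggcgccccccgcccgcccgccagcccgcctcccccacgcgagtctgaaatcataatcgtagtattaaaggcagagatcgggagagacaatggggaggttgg
Suz12, chr11:79992856-79993155, plus strand: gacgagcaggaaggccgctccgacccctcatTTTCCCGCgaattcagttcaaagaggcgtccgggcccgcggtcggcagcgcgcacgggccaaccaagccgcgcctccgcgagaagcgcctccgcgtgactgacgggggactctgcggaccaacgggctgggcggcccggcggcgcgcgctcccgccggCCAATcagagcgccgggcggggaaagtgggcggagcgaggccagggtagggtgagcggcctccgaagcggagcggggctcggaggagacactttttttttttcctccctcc
Ezh2, chr6:47594981-47595280, minus strand: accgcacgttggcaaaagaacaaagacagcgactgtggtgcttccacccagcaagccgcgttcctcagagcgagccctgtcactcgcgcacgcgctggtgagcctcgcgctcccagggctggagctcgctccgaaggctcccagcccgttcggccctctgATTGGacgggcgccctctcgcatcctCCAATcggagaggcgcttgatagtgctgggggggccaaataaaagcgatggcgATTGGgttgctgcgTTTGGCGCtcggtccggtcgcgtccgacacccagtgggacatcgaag
Eed, chr7:89980927-89981226, minus strand: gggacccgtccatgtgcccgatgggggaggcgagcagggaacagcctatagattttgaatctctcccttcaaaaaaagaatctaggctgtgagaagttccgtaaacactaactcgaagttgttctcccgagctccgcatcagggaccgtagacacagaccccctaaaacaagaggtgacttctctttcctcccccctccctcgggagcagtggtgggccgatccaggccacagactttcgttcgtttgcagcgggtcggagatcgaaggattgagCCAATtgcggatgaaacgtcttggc

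All 10 genes had a RefSeq promoter, 11 windows in all since Jarid2 had more than 1. Among the members, TTTCCCGC occurred in Suz12 alone and TTTGGCGC in Ezh2 alone, where 1.11% and 0.537% of 27025 promoters of the same length hold them. CACGTG occurred in Bmi1 alone (7.24% of all promoters), and CCAAT in Ezh2, Eed, Suz12, Jarid2 and Cbx7 (37.9% of all). In these windows no match overlapped another. These are matches of letters, not shown binding sites.

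The targeted gene was examined first. Gmnn (probe set 1417506_at) had signals of 983, 1669 and 1270 in the GemKD arrays of experiments 1, 2 and 3 and of 3557, 3477 and 3463 in their controls, so that 27.6%, 48.0% and 36.7% of the control signal was left. Its log2 fold change was -1.44 (limma adjusted p = 0.338 unpaired and 2.76e-06 when paired by experiment). Median signals of the 6 arrays lay between 59.3 and 60.9. The arrays of experiment 3 stand apart in both arms. The summed signal of the neural progenitor markers Sox1, Pax6, Nes and Zic1 was 3282 to 3864 in the 4 arrays of experiments 1 and 2 and 1076 to 1204 in the 2 arrays of experiment 3, and that of the pluripotency markers Pou5f1, Sox2, Nanog and Zfp42 was 18707 to 20613 and 14469 to 15005. The labelled tissue is neurectoderm. Pou5f1 stayed bright, with a mean signal of 7508 in experiments 1 and 2 and 7370 in experiment 3. The other pluripotency markers were lower in experiment 3, from 2032 to 315 for Nanog, 4288 to 1869 for Zfp42 and 5862 to 5183 for Sox2. Of the neural markers, Sox1 had 2318 and 550, and Pax6 and Zic1 were also lower in experiment 3. Nes was not, at 255 and 274. Fibroblast markers (Col1a1, Col1a2, Thy1, Twist1) summed to 845 to 896 and 514 to 566, trophoblast markers (Cdx2, Krt7, Elf5, Hand1) to 138 to 170 and 179 to 194, mesoderm markers (Mesp1, Eomes, Mixl1, Kdr) to 599 to 758 and 551 to 587, and endoderm markers (Sox17, Gata6, Gata4, Foxa2) to 188 to 278 and 224 to 241. Mixl1, Kdr and Elf5 were under the filter limit, a mean signal of 20.1. Such sums follow the brightest genes of a list and can hide members that differ. Col1a1, Col1a2 and Twist1 were lower in experiment 3, while the dim Thy1 was higher, at 31.5 in experiments 1 and 2 and 60.5 in experiment 3. In RNA of whole cultures, fewer cells of a type and less RNA per cell cannot be told apart.

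The first comparison asks whether knockdown of Geminin changed the expression of Polycomb subunits. None of the 10 genes passed in limma (adjusted p under 0.05), with or without the experiment as a block, where 0.00705% and 0.0352% of all 14185 tested genes were called. Their log2 fold changes were small, from -0.07 for Jarid2 to 0.17 for Cbx7. The median size of the change was 0.04 over the members and 0.06 over all tested genes, and 0.04 over the 6768 genes at least as bright as the dimmest member. A pseudocount of 16 was added to signals before taking log2, which understates changes of dim probe sets. Replicates here are the 3 experiments. In no member were the 3 GemKD arrays all above or all below the 3 controls, as in 2.09% and 2.24% of tested genes.

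Within PRC2, Ezh2 (1416544_at) had signals of 3467, 3496 and 3007 in GemKD and 3444, 3470 and 2954 in the controls of experiments 1, 2 and 3. The 2 arms were nearly level in each experiment, with log2 ratios of 0.01, 0.01 and 0.03. The mean log2 fold change was 0.02 with a 95% interval of -0.07 to 0.10 in the paired fit. Eed (1448653_at), the subunit that reads the methyl mark, had 3810, 3803 and 3985 in GemKD and 3843, 4030 and 3690 in the controls, a log2 fold change of 0.005 (paired interval -0.09 to 0.10). Its groups overlapped, and experiment 3 went the other way from experiments 1 and 2.

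Suz12, the scaffold of PRC2, was measured by 6 probe sets. The brightest (1420021_s_at) had 3583, 3758 and 2380 in GemKD and 3636, 3235 and 2296 in the controls (log2 0.08, paired interval -0.03 to 0.19, blocked adjusted p = 0.997). The difference between arms was seen mainly in experiment 2, where the log2 ratio was positive in all 6 probe sets, from 0.22 to 0.76, against 4 of 6 in experiment 1 and 5 of 6 in experiment 3. The uninduced array of experiment 2 was below that of experiment 1 in all 6. These probe sets read 1 gene and are not independent. With the block, 3 of the 6 had an unadjusted p under 0.05, where 4.76% of all tested genes did at their brightest probe set. That share was not counted over all probe sets. None of the 6 passed in limma when adjusted over all 31526 probe sets tested, of which 0.00952% did. The strongest was the dim 1449661_at, at 272, 276 and 194 in GemKD and 211, 170 and 164 in the controls (log2 0.41, paired interval 0.16 to 0.65, blocked adjusted p = 0.992).

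Jarid2 (1422698_s_at) had 5239, 5095 and 3613 in GemKD and 5155, 5603 and 3870 in the controls, a log2 fold change of -0.07 (paired interval -0.16 to 0.02). Its other probe sets had 0.005 and 0.04. Ezh1, the catalytic subunit more typical of non-dividing cells, had 390, 363 and 286 in GemKD and 387, 397 and 243 in the controls at its brightest probe set (1449023_a_at). The log2 ratios of 0.01, -0.13 and 0.22 did not share a direction, and the paired interval ran from -0.17 to 0.24.

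Among the PRC1 genes, Cbx7 had the largest difference of the members. Its brightest probe set (1433557_at) read 1795, 1824 and 1241 in GemKD and 1430, 1652 and 1210 in the controls, with log2 ratios of 0.32, 0.14 and 0.04. GemKD was above its own control in 3 of 3 experiments, most in experiment 1, while the 2 groups of 3 overlapped. The log2 fold change of 0.17 (paired SE 0.06, paired interval 0.03 to 0.30) had an unadjusted blocked p of 0.0195 and an adjusted p of 0.934 in limma. It was the 1 member of 10 with an unadjusted blocked p under 0.05, where 4.76% of all tested genes and 5.02% of those at least as bright as the dimmest member had one.

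Bmi1 (1417493_at), the founding PCGF protein of canonical PRC1, had 1466, 1348 and 704 in GemKD and 1440, 1308 and 646 in the controls. GemKD was slightly above its control in each experiment, and the log2 fold change was 0.06 (paired interval -0.07 to 0.20). Pcgf6, of the non-canonical PRC1.6 complex, had 1891, 1873 and 2222 against 1967, 2026 and 2203 (1424081_at, log2 -0.05, paired interval -0.16 to 0.06). Rnf2, the ligase shared by all of these, had 3110, 2952 and 3031 against 3239, 3112 and 2716 (1424873_at, log2 0.008, paired interval -0.10 to 0.12). Phc1 had 6924, 6736 and 5638 against 6513, 6829 and 5634 (1423212_at, log2 0.02, paired interval -0.05 to 0.10). In each of these 4 the arms overlapped.

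By direction alone, 3 of the 10 genes (Ezh2, Bmi1 and Cbx7) were higher in GemKD in all 3 experiments and none was lower in all 3, against 12.2% and 11.7% of tested genes. Of the 27 member probe sets that passed the filter on low signal, 7 were higher and none was lower in all 3 experiments, where 13.5% and 10.5% of tested probe sets were. At the brightest probe sets no member reached 1.5-fold in any of the 30 gene by experiment ratios, the largest being 0.32 on the log2 scale. The share of all genes for that measure was not counted. No member passed 1.5-fold one way in all 3 experiments, where 0.0423% of tested genes did. Of the dimmer probe sets tested, some passed 1.5-fold upward in experiment 2 and none passed it downward. These were 1420022_s_at (0.76) and 1449661_at (0.65) of Suz12, which are not independent, and 1420039_s_at (0.68) of Cbx7. The share of all tested probe sets that passed 1.5-fold either way in experiment 2 was not counted. The response to the 2 hairpins was compared by an interaction term. As shRNAmir 9 had 1 pair of arrays, in experiment 2, the hairpin cannot be told apart from that experiment and line. The log2 differences of shRNAmir 9 minus shRNAmir 11 were largest in size for Ezh1 (-0.24) and Suz12 (0.20). For Ezh1 the log2 ratio was -0.13 in experiment 2, and 0.01 and 0.22 in experiments 1 and 3, which shared a hairpin. For Suz12 it was 0.22 in experiment 2, and -0.02 and 0.05 in experiments 1 and 3. With 1 pair the spread for shRNAmir 9 is unknown, so no difference between the hairpins is drawn for any member.

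**Figure D1:**
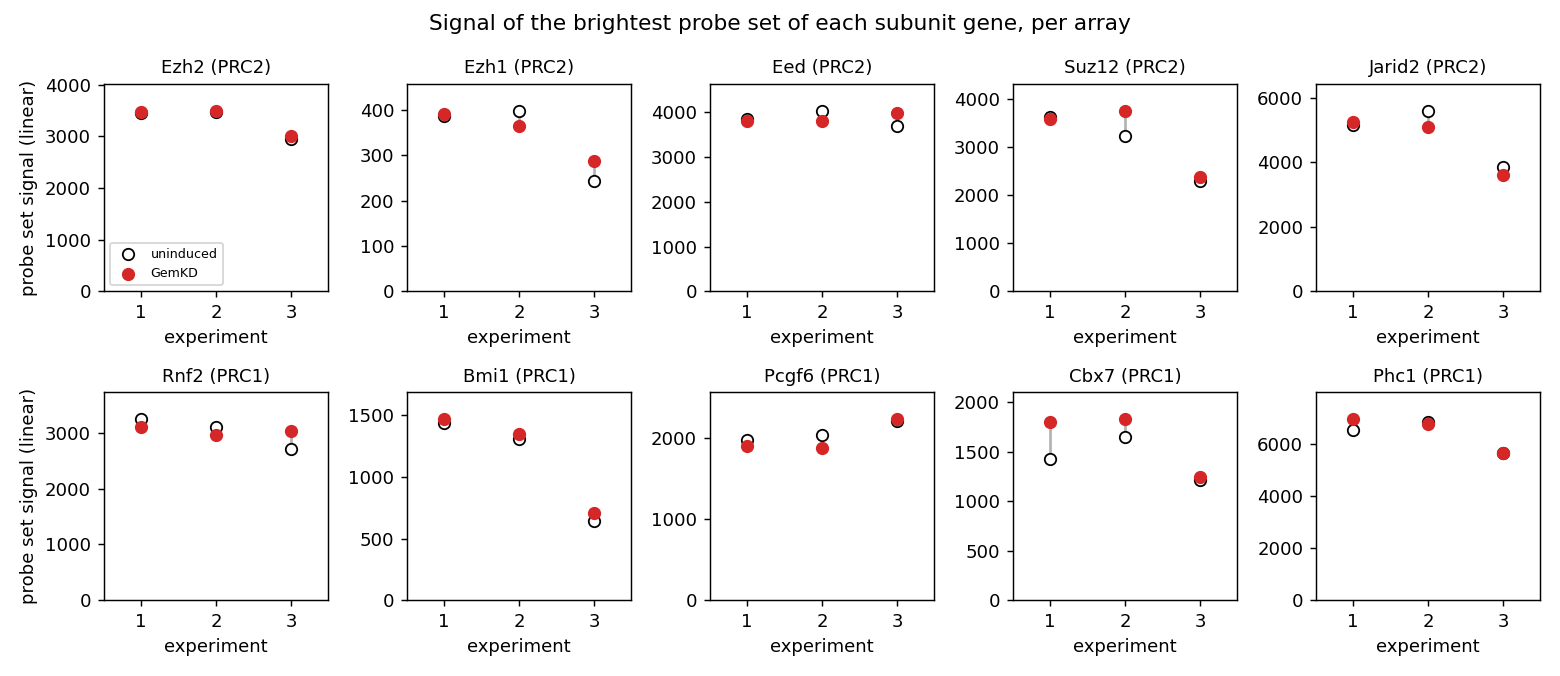
Signal (linear scale from 0) of the brightest probe set of each subunit gene by experiment, filled points for GemKD and open points for uninduced arrays, 1 array per point, with a line joining the arrays of an experiment. The arms lie close together in each panel, while Bmi1, Suz12 and Jarid2 are lower in both arrays of experiment 3 and Eed is level.

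**Figure D2:**
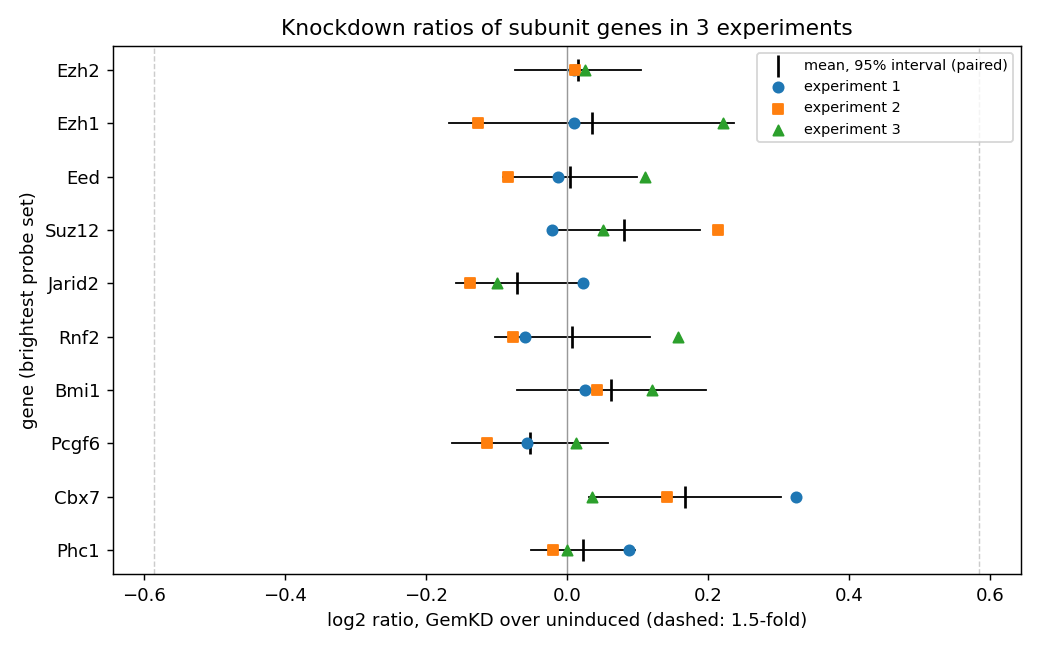
Log2 ratio of GemKD over uninduced for the brightest probe set of each gene, 1 symbol per experiment, with the mean and its 95% interval from the paired fit. Every ratio lies inside the dashed 1.5-fold lines, and Cbx7, at 0.17, has the interval farthest from 0.

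The second comparison sets both arrays of experiment 3 beside the 4 arrays of experiments 1 and 2, with the arm as a covariate. Polycomb subunits differed here unevenly. Bmi1 was at 48.5% of its level in the other experiments, Suz12 at 65.8%, Ezh1 at 68.8%, Jarid2 at 71.0% and Cbx7 at 73.2%, Phc1 and Ezh2 were lower by less, Pcgf6 was slightly higher, and Eed and Rnf2 did not pass. In limma 7 of the 10 genes were called lower and 1 higher, where 22.6% of all tested genes were called lower and 12.1% higher. Among the 6768 genes at least as bright as the dimmest member, a limit chosen after the values were seen, those shares were 29.9% and 15.5%. The median log2 difference was -0.35 over the 10 members and -0.04 over all tested genes. Arrays of 1 experiment are not independent, so these p-values cover the spread between the 6 arrays and not that between repeated experiments. The part of the marker differences given above in these results was not tested.

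Bmi1 had the largest difference. The signals of 704 and 646 in experiment 3 lay below all 4 others, which were 1391 ± 74.7 (SD, n = 4), with a log2 difference of -1.03 (SE 0.07, 95% interval -1.17 to -0.88, limma adjusted p = 7.62e-07). A second probe set (1448733_at) read 309 and 245 against 546 ± 51.2 (SD, n = 4), a log2 difference of -0.94 (limma adjusted p = 1.24e-04 over probe sets). Bmi1 was the 1 member more than 1.5-fold lower in both arms with both arrays outside the range of the others, as were 4.43% of all tested genes.

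Suz12 followed, at 2380 and 2296 in experiment 3 against 3553 ± 224.2 (SD, n = 4). Its log2 difference was -0.60 (SE 0.05, interval -0.71 to -0.49, limma adjusted p = 6.26e-06), 1.51-fold. All 6 probe sets were lower in experiment 3, from -0.32 to -1.01, and 4 of them passed over all probe sets. Jarid2 had 3613 and 3870 against 5273 ± 227.8 (SD, n = 4), a log2 difference of -0.49 (SE 0.04, limma adjusted p = 5.06e-06), with -0.37 and -0.46 in its other probe sets, both past the threshold. For Bmi1, Suz12 and Jarid2 every tested probe set therefore pointed down.

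Of the catalytic subunits, Ezh2 was lower by a small amount and the probe sets of Ezh1 were not uniform. Ezh2 had 3007 and 2954 in experiment 3 against 3469 ± 21.5 (SD, n = 4), a log2 difference of -0.22 (SE 0.04, limma adjusted p = 0.00113). Ezh1 had 286 and 243 against 384 ± 14.9 (SD, n = 4) at its brightest probe set, a log2 difference of -0.52 (SE 0.09, limma adjusted p = 0.00122). Its dimmer probe sets did not follow, with 0.25 (1418290_a_at) and -0.01 (1429629_at), and the call was lost when all probe sets of the gene were averaged (-0.14, limma adjusted p = 0.406). The fourth, 1429630_at, had a mean signal of 6.4 and was not tested.

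Eed was level across experiments, at 3985 and 3690 against 3871 ± 107.2 (SD, n = 4), a log2 difference of -0.01 (interval -0.11 to 0.08, limma adjusted p = 0.852). A dim second probe set (1453830_at, mean signal 21.9) had 0.45 (limma adjusted p = 0.161). Relative to Eed within the same array, Suz12 was lower by 0.61 and 0.56 on the log2 scale in the 2 arrays of experiment 3 than its mean in the other 4, which spread from -0.19 to 0.11. Ezh2 relative to Eed was lower by 0.25 and 0.16, where the other 4 spread from -0.06 to 0.04. The transcripts of the PRC2 core thus shifted by unequal amounts, and such ratios do not show which of them moved.

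In PRC1 the ligase Rnf2 was not called at its brightest probe set, at 3031 and 2716 in experiment 3 against 3103 ± 117.3 (SD, n = 4), with a log2 difference of -0.11 (interval -0.23 to 0.007, limma adjusted p = 0.136). Without the GemKD array of experiment 3 it was called (-0.22, limma adjusted p = 0.0223). A second bright probe set (1451519_at) was called lower, at 2274 and 2252 against 2610 ± 32.3 (SD, n = 4; log2 -0.20, limma adjusted p = 0.00524 over probe sets). The third tested, 1448042_s_at, had -0.24 and was not called. The 2 others, 1448043_x_at and 1448041_at, had mean signals of 6.6 and 5.2, under the filter limit of 20.1.

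Pcgf6 went the other way from Bmi1, with which it competes for Rnf2. It had 2222 and 2203 in experiment 3 against 1940 ± 70.8 (SD, n = 4), a log2 difference of 0.19 (SE 0.05, limma adjusted p = 0.0101). The call was lost without the GemKD array of experiment 3 (0.14, limma adjusted p = 0.111), and the other probe sets had 0.11 and -0.01 and were not called. Bmi1 relative to Pcgf6 was lower by 1.16 and 1.27 on the log2 scale in the arrays of experiment 3, where the other 4 spread from -0.15 to 0.11.

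The reader and polyhomeotic subunits were lower at their brightest probe sets. Cbx7 had 1241 and 1210 in experiment 3 against 1675 ± 180.1 (SD, n = 4), a log2 difference of -0.44 (SE 0.07, limma adjusted p = 5.07e-04). Its 2 dim probe sets went up, by 0.25 for 1449713_at (mean signal 39.9) and 0.68 for 1420039_s_at (mean signal 26.5, limma adjusted p = 0.0391 over probe sets). Averaged over its probe sets Cbx7 had 0.16 and was not called, so its direction rests on the bright probe set. Phc1, with 1 probe set, had 5638 and 5634 against 6750 ± 176.2 (SD, n = 4), a log2 difference of -0.26 (SE 0.03, limma adjusted p = 1.38e-04).

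**Figure D3:**
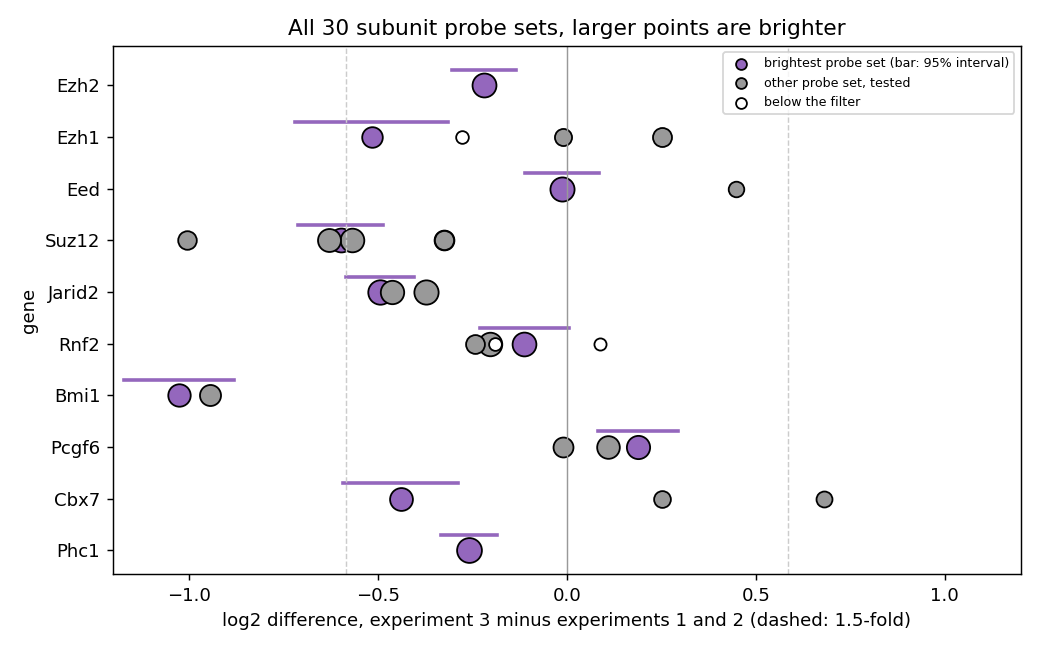
Log2 difference between experiment 3 and experiments 1 and 2 for each of the 30 member probe sets, point size rising with mean signal, with the 95% interval of the brightest probe set of each gene as a bar. All probe sets of Bmi1, Suz12 and Jarid2 lie below 0. Those above 0 are the brighter probe sets of Pcgf6 and dimmer ones of Cbx7, Eed, Ezh1 and Rnf2, that of Rnf2 below the filter.

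Over all member probe sets tested, 14 of 27 were called lower and 2 higher, where 16.7% and 11% of all tested probe sets were. Both arrays of experiment 3 lay outside the range of the other 4 on the lower side in 7 of 10 genes and on the higher side in 1, against 31% and 19.7% of tested genes. Experiments 1 and 3 used the same hairpin. Set against experiment 1 or experiment 2 alone, the 7 lower genes were again called lower, and Pcgf6 was not called against experiment 2 alone (0.18, limma adjusted p = 0.0606).

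The rest of the Polycomb system was followed in lists of genes named for their function. Of 8 other PRC2 genes tested, none was called with knockdown in either fit, and 2 were lower and none higher in experiment 3, with a median log2 difference of -0.11. For this list and the 3 that follow, the shares over all tested genes are the 22.6% called lower and 12.1% called higher given above, with a median of -0.04, and the list's count of lower genes is near its share. Epop, an accessory subunit of PRC2, had 821 and 756 in experiment 3 against 1447 ± 187.5 (SD, n = 4; log2 -0.86, limma adjusted p = 2.59e-06). It also had the largest knockdown difference of that list, with log2 ratios of 0.39, 0.24 and 0.12 in experiments 1, 2 and 3 (0.25, blocked adjusted p = 0.578 in limma). Mtf2, a Polycomb-like protein that guides PRC2 to CpG islands, was lower in experiment 3 by a log2 difference of -0.24 (limma adjusted p = 4.81e-04). The histone-binding subunits Rbbp4 and Rbbp7 had -0.014 and -0.09 and were not called.

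Of 26 other PRC1 genes listed, 24 had a probe set and were tested. None was called with knockdown in either fit, while 7 were lower and 4 higher in experiment 3 (median -0.11). The shares were 22.6% and 12.1% over all tested genes. They were 29.9% and 15.5% among those at least as bright as the dimmest member, though this list also holds dimmer genes. Kdm2b, which brings the non-canonical PRC1.1 to CpG islands, had 2610 and 2291 in experiment 3 against 4037 ± 86.9 (SD, n = 4; log2 -0.72, limma adjusted p = 5.27e-07). Its PRC1.1 partners went apart, with Pcgf1 at -0.52 and Bcor at 0.49 (limma adjusted p = 0.0015 and 0.00124). Phc2, a second polyhomeotic gene, had -0.68, and Auts2, a subunit of PRC1 linked to active genes in neural cells, had 0.61 (limma adjusted p = 6.53e-04 and 3.73e-05). The PRC1.6 partners of Pcgf6 did not share a direction. E2f6 had 0.24, near the 0.19 of Pcgf6, while Max had -0.41 (limma adjusted p = 0.00513 and 0.00425). L3mbtl2 (0.17) and Mga (0.07), also of PRC1.6, were not called (limma adjusted p = 0.219 and 0.442). Also called were Cbx8 (-0.60), Scmh1 (-0.56), Usp7 (-0.12) and Cbx6 (0.25).

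Of 13 enzymes that oppose Polycomb marks or act with their opponents, none was called with knockdown, and 3 were lower and none higher in experiment 3 (median -0.09), where 22.6% of all tested genes were lower. Kdm6b, a demethylase of the PRC2 mark, had 1289 and 961 in experiment 3 against 2117 ± 128.5 (SD, n = 4; log2 -0.92, limma adjusted p = 1.34e-05). The related demethylase Kdm6a had -0.17 and was not called (limma adjusted p = 0.0817). Kmt2c, a methyltransferase of histone H3 lysine 4, had -0.36 and the acetyltransferase Ep300 had -0.30 (limma adjusted p = 0.00241 and 0.00126).

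Of 42 genes known as Polycomb targets in embryonic stem cells, 39 had a probe set and 24 passed the filter. None was called with knockdown in either fit (median log2 fold change 0.04, against 0.002 over all tested genes). In experiment 3, 6 were called lower and none higher, where 22.6% and 12.1% of all tested genes were, and the median was -0.10 against -0.04. These were Hoxa5 (log2 -3.56), Hoxb1 (-3.13), the neural factor Pax6 (-2.24), Hoxa2 (-1.30), Lhx2 (-1.13) and Tbx3 (-0.50). Hoxa5, Hoxb1 and Hoxa2 were under the filter limit in both arrays of experiment 3 and passed it through experiments 1 and 2, which by itself makes them differ. Hoxb1 had the largest knockdown difference of the list, with log2 ratios of 0.48, 0.94 and 0.29 (0.57, blocked adjusted p = 0.557 in limma). The tumour suppressor locus Cdkn2a, a classical target of Bmi1, had 0.32 in experiment 3 and was not called (limma adjusted p = 0.0849). Its difference was 0.50 in the GemKD arm and 0.13 in the uninduced arm. Cdkn2b, also on the list, had 0.05 and was not called (limma adjusted p = 0.757).

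**Figure D4:**
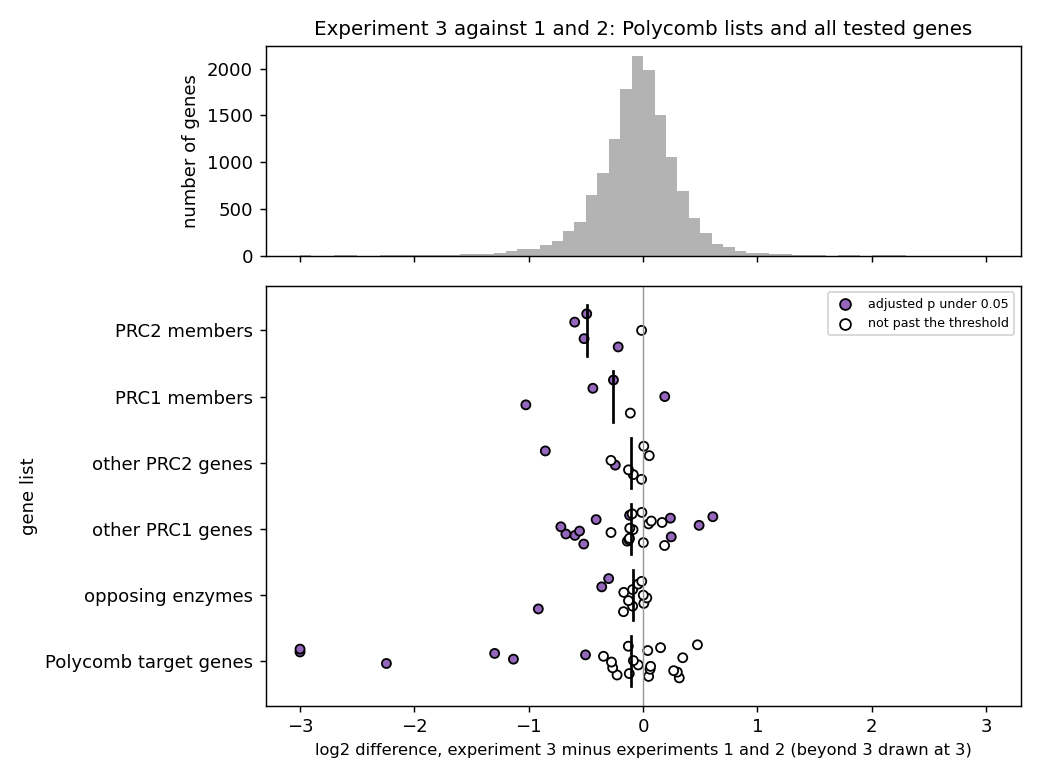
Upper panel, number of tested genes by log2 difference between experiment 3 and experiments 1 and 2. Lower panel, the same difference for each gene of the Polycomb lists, filled where the adjusted p was under 0.05, with the list median as a line at -0.49 for the PRC2 members and -0.26 for the PRC1 members.

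The genes most like Bmi1 over the 6 arrays, by Pearson's r of their log2 values among 2312 genes with an SD of at least 0.3, were Angel1 (r = 0.9994), Epas1 (0.9991), Rpl39l (0.999), Zfp975 (0.9989) and Meis2 (0.9989). As many as 607 genes had r above 0.95, and all these values follow the step between experiment 3 and the others.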

How the data were processed

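Affymetrix Mouse Genome 430 2.0 arrays with a biotin label were used, per the labels' protocols. Values deposited by the authors are linear intensity, 1 per probe set and array. Their software, background correction and normalization were not stated in the labels. Array medians were nearly equal, so no further normalization was done. Names came from the platform annotation and sequences came from RefSeq (GRCm38.p6). Each gene was represented by its brightest probe set over the 6 arrays and tested if its mean signal passed the 30th percentile of all probe sets (20.1), which left 14185 genes. Member probe sets were also tested one by one among 31526 probe sets.

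Log2(signal + 16) was fitted with R 4.3.3 and limma 3.58.1 (lmFit, then eBayes with trend; two-sided p adjusted by Benjamini-Hochberg over all features). The fits were run on simulated data with noise independent between arrays. For the unpaired and experiment 3 fits, the simulated arrays had no step between experiments other than the changes put in. They therefore cannot show how these fits behave where arrays of 1 experiment depend on each other, as here. GemKD was compared with uninduced without a block and, since each experiment had its own control, with the experiment as a block (the paired fit). Deviations from the group means correlated by 0.489, 0.472 and 0.714 between the arrays of experiments 1, 2 and 3. Experiment 3 was compared with experiments 1 and 2 with the arm as a covariate. An interaction tested the hairpins. The members, lists and comparisons were chosen with earlier results of these data known. All members are named. Of other lists, genes past the threshold or with the largest differences are named. Rbbp4, Rbbp7, L3mbtl2, Mga, Kdm6a, Cdkn2a and Cdkn2b are named outside that rule. The genes most like a member are those with the highest correlation to the member of largest SD. Alternatives covered normalization, filter, pseudocount, probe set choice, trend, block and each array or experiment left out.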

Additional observations from a re-analysis of the deposited data

How the results depend on the processing

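No member was called with knockdown under any of 19 alternatives, including the replicate block, all probe sets, and each array or experiment left out. Most of these were unpaired fits, which called 0 or 1 of all features. Gmnn itself did not pass in the main unpaired fit (limma adjusted p = 0.338), so the lack of a member call in such fits says little. Over all genes tested the count was 1 in the unpaired fit, 5 with the replicate block and 3 with it over all probe sets. It was 75, 28 and 28 with the block without experiment 1, 2 or 3, and 0 without an intensity trend. The block changed no call of a member. Uncalled knockdown values near 0 changed sign. With quantile normalization Ezh2 had -0.0038, Eed -0.0030 and Rnf2 -0.0056, and Ezh1 had -0.0451 as the mean of its probe sets. In the blocked fit without experiment 1 Phc1 had -0.0093, and without experiment 3 Ezh1 had -0.0576, Eed -0.0479 and Rnf2 -0.067. With 1 array left out the unpaired values ranged from -0.0599 to 0.0855 for Ezh2, -0.18 to 0.16 for Ezh1, -0.0259 to 0.0375 for Eed, -0.11 to 0.29 for Suz12, -0.23 to 0.10 for Jarid2, -0.0669 to 0.0594 for Rnf2, -0.29 to 0.39 for Bmi1 and -0.0577 to 0.12 for Phc1, as leaving out 1 array unbalances the experiments.

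In experiment 3 against the others 8 members were called, 5 with the mean of all probe sets, and 16 probe sets when each was tested on its own. The count was 8 without each array in turn, though Rnf2 replaced Pcgf6 without the GemKD array of experiment 3. Bmi1, Suz12, Jarid2, Ezh2 and Phc1 kept their call and direction in every tested alternative. The mean of all probe sets turned Cbx7 to 0.16 and Eed to 0.22. Eed had 0.0031 with experiments 1 and 3 alone and -0.0926 to 0.066 with 1 array left out, and Rnf2 -0.22 to 4e-04. Pcgf6 was also not called without an intensity trend (adjusted p = 0.0708 in limma). The number of arrays limits the precision, and dim probe sets limit the second opinion on Cbx7 and Eed. For Ezh1 the second brightest probe set had a mean signal of 132 and did not follow the brightest.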

Other observations

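Experiments 1 and 2, which used different hairpins in separate lines, were close in these genes. The log2 difference between the mean of the arrays of experiment 1 and that of experiment 2 ran from -0.11 for Cbx7 to 0.13 for Bmi1, with the other 8 members within 0.07 of 0. The median size over all tested genes was 0.07.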
